A study of Rattus norvegicus with 20 samples.

Results

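The nuclear genes for subunits of respiratory complexes II, III, IV and V, and for a few proteins that attach to them, were followed in the right ventricle of rats with chronic pulmonary embolism (PE). The members were all probe sets (groups of array probes that report one transcript) whose only gene symbol in the platform annotation begins with Uqcr, Atp5 or Cox4 to Cox8, or is Sdha, Sdhb, Sdhc, Sdhd, Cyc1 or Cycs. This gave 51 of the 31042 non-control probe sets, for 45 of 14217 genes: 4 genes of complex II, 8 of complex III, 17 filed with complex IV and 16 of complex V. No probe set had Cycs as its only symbol, and 7 probe sets that carry a member name next to another symbol were left out. Where a gene had more than 1 probe set, the brightest stands for it, and the other probe sets are given where they differ in call or direction.

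Male Sprague Dawley rats of approximately 350 g received 2000000 polystyrene microspheres of 25 micron per 100 g into the right jugular vein, labelled PE2.0, or the Tween-20 solution (0.01%) without microspheres, labelled vehicle. After 6 weeks each right ventricle was divided into its outflow tract (base) and its apex, and every RNA sample went onto 1 Affymetrix array. The groups were PE outflow, vehicle outflow, PE apex and vehicle apex, with 5 arrays each that the titles number as biological replicates. Whole tissue was used, in which fewer cells of a type and less RNA per cell cannot be told apart.

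Complex II, succinate dehydrogenase, passes electrons from the citric acid cycle to ubiquinone. Complex III passes them on to cytochrome c, complex IV (cytochrome c oxidase) passes them to oxygen, and complex V uses the resulting proton gradient to make ATP. Heart muscle depends on this chain for most of its ATP, and for several cytochrome c oxidase subunits it uses isoforms that differ from those of most other tissues.

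Promoter sequences are shown to let the genes with the values below be read next to the letters from which they are transcribed. RefSeq promoters (GRCr8 build, 250 bases before to 50 after the start) were found for 38 of the 45 genes. They were searched on both strands for short motifs named after regulators of mitochondrial or muscle genes: GCGCA and GCGC with 1 base between them (NRF1), CCGGAAG (ETS factors, the family of GABPA), AAGGTCA (estrogen-related receptors, ERR), AAGATGG (YY1) and CTA and TAG with 4 bases between them (MEF2). The 120 bases before the start are printed for Sdha (complex II), Uqcrc2 (complex III), and Atp5me and Atp5f1e (complex V), which fell. In complex IV they are printed for both isoforms of subunit 8, for the muscle isoform of subunit 6A and for Cox6b2, which rose. These genes are examples picked without a fixed rule. Atp5f1d and Uqcrfs1, which also fell, had none of these motifs in the searched promoter. Capitals mark motifs, which on the reverse strand show as their complement read backwards. Positions count back from the base before the start (-1).
Sdha: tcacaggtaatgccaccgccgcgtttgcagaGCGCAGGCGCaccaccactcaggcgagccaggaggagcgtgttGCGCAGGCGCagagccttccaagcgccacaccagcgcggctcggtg
Uqcrc2: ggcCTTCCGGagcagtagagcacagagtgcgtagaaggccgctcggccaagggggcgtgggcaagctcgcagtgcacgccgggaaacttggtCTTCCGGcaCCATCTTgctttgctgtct
Atp5me: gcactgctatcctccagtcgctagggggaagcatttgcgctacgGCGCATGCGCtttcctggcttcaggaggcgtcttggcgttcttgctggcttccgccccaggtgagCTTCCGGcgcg
Atp5f1e: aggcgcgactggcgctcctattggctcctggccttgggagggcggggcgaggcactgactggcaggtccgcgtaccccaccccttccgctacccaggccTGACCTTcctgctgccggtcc
Cox8a: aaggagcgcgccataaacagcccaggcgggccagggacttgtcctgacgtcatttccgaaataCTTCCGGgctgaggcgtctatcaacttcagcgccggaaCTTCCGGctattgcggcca
Cox8b: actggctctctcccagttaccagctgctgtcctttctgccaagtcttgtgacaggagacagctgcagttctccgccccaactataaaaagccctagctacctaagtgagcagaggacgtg
Cox6a2: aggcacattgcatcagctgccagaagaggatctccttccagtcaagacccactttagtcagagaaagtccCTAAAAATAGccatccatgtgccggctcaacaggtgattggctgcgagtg
Cox6b2: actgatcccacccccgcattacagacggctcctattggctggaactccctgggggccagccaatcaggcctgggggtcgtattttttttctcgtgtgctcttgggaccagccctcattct

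These windows lie at chr1:30764433-30764552 on the plus strand (Sdha), chr1:184599120-184599239 on the plus strand (Uqcrc2), chr14:1464740-1464859 on the plus strand (Atp5me) and chr3:183680173-183680292 on the minus strand (Atp5f1e). Those of subunits 8 and 6 lie at chr1:213833624-213833743 on the minus strand (Cox8a), chr1:205408274-205408393 on the minus strand (Cox8b), chr1:192219717-192219836 on the minus strand (Cox6a2) and chr1:78122751-78122870 on the plus strand (Cox6b2). Sdha, which encodes the flavoprotein of complex II, has NRF1 letters from -89 and from -46. Uqcrc2, a core protein of complex III, has ETS letters from -117 and from -28 and YY1 letters from -19. Atp5me and Atp5f1e encode subunits of the ATP synthase. Atp5me has NRF1 letters from -76 and ETS letters from -11, and Atp5f1e has ERR letters from -21. In the subunit 8 pair, Cox8a has ETS letters from -57 and from -19, while none of these motifs is in the window of its muscle counterpart Cox8b. The only match in the Cox6a2 window is MEF2, from -50, and there is none in the Cox6b2 window.

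Among the 38 member promoters of that length, NRF1 letters occurred in 7 (18.4%), against 8.495% of the 11701 promoters of genes on the array and 4.71% of all 27457. ETS letters occurred in 13 (34.2%, against 15.05% and 9.22%), ERR letters in 8 (21.1%, against 3.15% and 4.37%), YY1 letters in 10 (26.3%, against 7.84% and 7.30%) and MEF2 letters in 2 (5.26%, against 3.03% and 3.83%). These shares describe letters and not bound sites.

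One array of the PE outflow group, replicate 2, stood apart from the rest. Its GAPDH 3' to 5' signal ratio, a measure of RNA quality that is high where transcripts are incomplete, was 6.12. The other PE outflow arrays had 1.70 to 2.34, against 1.38 to 1.66 in vehicle outflow, 1.47 to 1.67 in PE apex and 1.44 to 1.83 in vehicle apex. Its mean correlation with the arrays of its group was 0.929, against 0.959 to 0.963 for the other 4. Counts over the members, and some of the values it moved, are given below with and without it.

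The first comparison asked what the subunit genes did in the outflow tract after PE. Of the 45 genes, 39 fell, 1 rose (Cox6b2) and 5 were not called (limma, adjusted p under 0.05 over all 31042 probe sets). All 4 genes of complex II fell, as did all 8 of complex III and all 16 of complex V, and 11 of the 17 filed with complex IV. Of the 51 probe sets, 42 were lower and 1 higher, where 14.9% of all probe sets were lower and 19.6% higher. The median log2 change of the member probe sets was -0.89, against 0.05 over all probe sets, and with quantile normalization, which forces the same distribution on all arrays, it was -0.56, against -0.01. Changes here are those of the signal plus 16, on the log2 scale.

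Of the 45 genes, 40 had a mean log2 signal above 10, a limit chosen after the values were seen. Their log2 changes ran from -1.51 (Sdhc) to -0.20 (Cox7a2l), and 15 of them were at or below -1. The median was -1.24 over 4 genes of complex II, -1.02 over 8 of complex III, -0.78 over 12 of complex IV and -0.94 over 16 of complex V. Without PE outflow replicate 2 these medians were -1.31, -1.17, -0.95 and -1.06. No test was run between the complexes. Signals above that limit fell more often in general: 39.5% of the 4640 other probe sets above it were lower, with a median of -0.14, against 41 of the 42 member probe sets, with a median of -0.94.

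Every PE outflow array lay below every vehicle outflow array for 25 of the 51 probe sets, where 9.98% of all probe sets did. For 1 member, Cox6b2, every PE array lay above (13.4% of all probe sets). Without PE outflow replicate 2, the other 4 PE arrays lay below every vehicle array for 44 of the 51 (14.3% of all), and 46 were called in place of 43. Leaving out that array took the outflow log2 change of Atp5f1e from -0.76 to -1.03 and that of Uqcrq from -0.89 to -1.16. It took Cox7a1 from -0.99 to -1.26, Cox8b from -0.92 to -1.18 and Cox6b2 from 2.62 to 2.89.

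**Figure D1:**
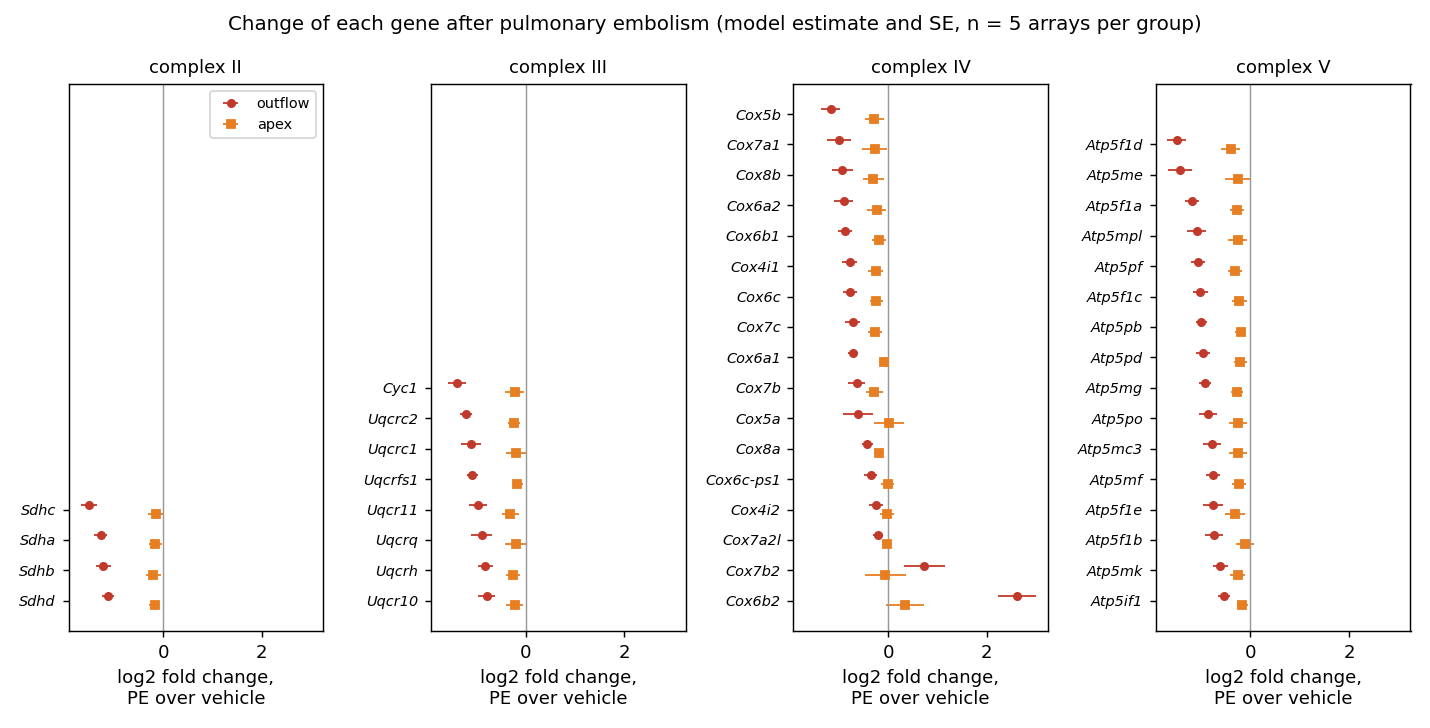
Log2 fold change of each gene, PE over vehicle, in the outflow tract (red circles) and the apex (orange squares), by complex; points are model estimates and bars their SE, from 5 arrays per group. In the outflow tract all genes of complexes II, III and V lie left of 0, Cox6b2 of complex IV lies at 2.62, and the apex values lie closer to 0 than the outflow values for these genes.

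Complex II has 4 subunits, all encoded in the nucleus. Sdha, the flavoprotein that oxidises succinate, had signals of 12354, 11275, 12000, 8373 and 7422 on the PE outflow arrays of replicates 1 to 5, against 26189, 22321, 24636, 24754 and 23190 on the vehicle outflow arrays. All PE values lay below all vehicle values, and the log2 change was -1.26 ± 0.13 (SE, n = 5 per group, limma adjusted p = 6.7e-07). Sdhb, the iron-sulfur subunit that carries electrons onward, had 14647, 15272, 12501, 9006 and 8065 on the PE arrays, against 28538, 24415, 24794, 25973 and 30352 on the vehicle arrays. The groups again did not overlap, with a log2 change of -1.21 ± 0.15 (limma adjusted p = 4.7e-06).

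Sdhc and Sdhd anchor the enzyme in the inner membrane. Sdhc had 8327, 5984, 7984, 4975 and 3906 on the PE outflow arrays, against 17416, 15815, 15506, 18008 and 18853 on the vehicle outflow arrays. It fell by 1.51 ± 0.16 on the log2 scale (limma adjusted p = 1.1e-06), the most of any member by its main probe set, to 35.2% of the vehicle level. This rank depended on PE outflow replicate 2. Without that array Sdhc had -1.51, and Atp5f1d (-1.67), Atp5me (-1.66) and Cyc1 (-1.52) fell further by their main probe sets. Sdhd had 13740, 11390, 11113, 9251 and 8710 on the PE arrays, against 24050, 23357, 23194, 24122 and 21210 on the vehicle arrays, with no overlap and a log2 change of -1.11 ± 0.11 (limma adjusted p = 6.9e-07). Its dimmer probe set fell as well (log2 change -1.49 ± 0.14, limma adjusted p = 3.5e-07).

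In complex III the fall was largest in Cyc1, cytochrome c1, which hands electrons to cytochrome c. Its signals were 14494, 16374, 12928, 6894 and 7756 on the PE outflow arrays, against 30667, 27349, 28052, 27812 and 30333 on the vehicle outflow arrays. All PE arrays lay lower, replicates 4 and 5 the lowest, and the log2 change was -1.38 ± 0.18 (limma adjusted p = 9.5e-06). Uqcrc2, a core protein, had 17173, 15128, 14186, 11855 and 10715 on the PE arrays, against 33031, 30293, 31476, 32473 and 30308 on the vehicle arrays. It fell by 1.21 ± 0.11 (limma adjusted p = 2.7e-07), again with no overlap.

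The second Uqcrc2 probe set differed in size. It read 9193, 383, 5187, 3371 and 3150 on the PE outflow arrays, against 17791, 15834, 18799, 18874 and 16467 on the vehicle outflow arrays, a log2 change of -2.60 ± 0.52 (limma adjusted p = 0.00053). Without replicate 2 the change of this Uqcrc2 probe set was -1.88, and over all alternatives it ran from -3.01 to -1.03, called in each. The value of 383 is that of replicate 2, the array with the highest GAPDH ratio, and what part that ratio had in it was not tested.

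Uqcr10, a small accessory subunit, fell least in this complex. It had 23506, 35453, 19380, 17901 and 15054 on the PE arrays, against 39538, 34694, 31186, 37521 and 41349 on the vehicle arrays, and a log2 change of -0.79 ± 0.17 (limma adjusted p = 0.0012). Replicate 2 lay within the vehicle range and the other 4 PE arrays below it. Without that array the log2 change was -0.970 for Uqcr10 and -0.965 for Uqcrh, so Uqcr10 no longer fell least. The Rieske iron-sulfur protein gene Uqcrfs1 had a log2 change of -1.08, the core protein gene Uqcrc1 -1.10, the hinge protein gene Uqcrh -0.81, and the accessory subunit genes Uqcr11 and Uqcrq -0.96 and -0.89. All of these were called.

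In complex IV the nuclear subunits surround a catalytic core that is encoded in mitochondrial DNA and had no member here. Cox5b, a nuclear subunit without a muscle form among the members, had the largest fall: 17521, 26152, 15580, 11367 and 9342 on the PE outflow arrays, against 36290, 31113, 31833, 33055 and 35847 on the vehicle outflow arrays. The groups did not overlap, and the log2 change was -1.16 ± 0.19 (limma adjusted p = 6.8e-05). Cox7a1, the heart and muscle isoform of subunit 7A, had 2214, 3920, 1640, 1160 and 1271 on the PE arrays, against 2829, 3828, 4021, 3660 and 4220 on the vehicle arrays. Its log2 change was -0.99 ± 0.25 (limma adjusted p = 0.0036), with replicate 2 inside the vehicle range. Its partner Cox7a2 has no probe set of its own here, so this pair could not be compared.

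Further subunits of complex IV fell by the test, with log2 changes of -0.78 for Cox6c, -0.72 for Cox7c and -0.63 for Cox7b. Of the 5 genes not called, Cox7a2l, a factor that joins complexes into supercomplexes, read 6259, 6450, 5579, 5978 and 5815 on the PE arrays, against 6975, 6479, 6770, 6936 and 7417 on the vehicle arrays. All PE values lay below all vehicle values, but the change was only -0.20 ± 0.10 (limma adjusted p = 0.12). Cox5a, whose probe set was dim, had -0.61 ± 0.30 (limma adjusted p = 0.14). Cox6c-ps1, named as a pseudogene of Cox6c whose probes may also bind the parent transcript, had -0.35 (limma adjusted p = 0.052). The testis isoform gene Cox7b2, with mean signals of 32.2 ± 27.8 in PE outflow and 10.4 ± 10.2 in vehicle outflow (SD), had 0.74 (limma adjusted p = 0.20).

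Cox6b2 went the other way. It encodes an isoform of subunit 6B best known from testis, while Cox6b1 is the main form in other tissues. Cox6b2 had 235, 156, 456, 571 and 489 on the PE outflow arrays, against 62.8, 27.3, 36.1, 80.7 and 23.9 on the vehicle outflow arrays. Every PE array lay above every vehicle array, and the log2 change was 2.62 ± 0.39 (limma adjusted p = 2.7e-05). The array with the lowest PE value was replicate 2. In the apex it had 12.001, 65.3, 86.4, 73.6 and 49.6 on the PE arrays, against 57.2, 36.3, 44.9, 12.8 and 47.3 on the vehicle arrays. These groups overlapped (0.34 ± 0.39, limma adjusted p = 0.89).

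Cox6b1 had 17075, 22653, 17466, 13980 and 11726 on the PE outflow arrays, against 30361, 31892, 29318, 27573 and 28697 on the vehicle outflow arrays. It fell by 0.87 ± 0.14 on the log2 scale (limma adjusted p = 8.4e-05), with no overlap. The Cox6b2 call held in all 32 alternatives, with log2 changes of 1.93 to 3.02. The table gives no detection calls, so whether its vehicle signals lay above background was not tested.

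**Figure D2:**
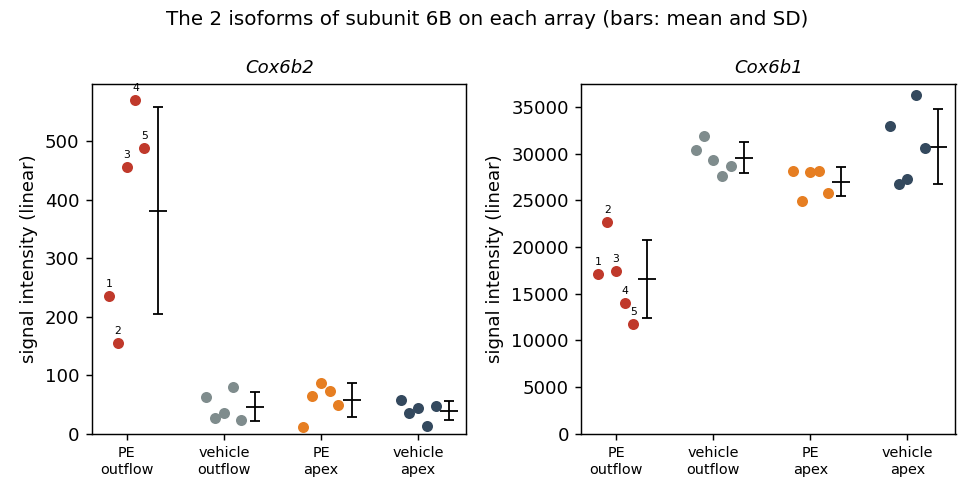
Signal of Cox6b2 (left) and Cox6b1 (right) on each array, on linear axes that start at 0 and differ between the panels; points are arrays, PE outflow replicates are numbered, and bars give the mean and SD of 5. Cox6b2 reads 156 to 571 on the PE outflow arrays and at most 86.4 on the other 15, while Cox6b1 is lower on the PE outflow arrays than on the vehicle outflow arrays.

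Complex V consists of the catalytic part F1, the membrane part Fo with its proton-driven ring, and stalks that join them. Of the genes filed with F1, Atp5f1d (delta subunit) had 7848, 10465, 6899, 4344 and 4280 on the PE outflow arrays, against 17754, 17494, 16281, 19289 and 19449 on the vehicle outflow arrays. The groups did not overlap, and the log2 change was -1.50 ± 0.19 (limma adjusted p = 4.3e-06). The catalytic beta subunit gene Atp5f1b had a smaller log2 change of -0.73, and the alpha, gamma and epsilon subunit genes Atp5f1a, Atp5f1c and Atp5f1e had -1.18, -1.02 and -0.76, all called.

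In the membrane part, Atp5me (subunit e, which takes part in pairing ATP synthases) had 6746, 9835, 5645, 2983 and 3223 on the PE arrays, against 16708, 11641, 11926, 15163 and 14502 on the vehicle arrays. This was a log2 change of -1.43 ± 0.25 (limma adjusted p = 0.00015), with no overlap. Its dim second probe set fell by 1.10 (limma adjusted p = 0.0011). The c-ring gene Atp5mc3 had a log2 change of -0.78, and Atp5mf, Atp5mg, Atp5mk and Atp5mpl, which encode small membrane subunits, had -0.76, -0.91, -0.61 and -1.09. All of these fell by the test.

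The genes filed with the stalk, Atp5pb, Atp5pd, Atp5pf and Atp5po, fell, with log2 changes of -0.995, -0.958, -1.06 and -0.854. A dim second probe set of Atp5po was not called (-0.17, limma adjusted p = 0.55). The smallest fall of the complex was that of Atp5if1, the protein that blocks ATP hydrolysis by the enzyme, with 4065, 4608, 3318, 2973 and 3462 on the PE arrays, against 5694, 5305, 4687, 5635 and 5181 on the vehicle arrays. Its log2 change was -0.54 ± 0.12 (limma adjusted p = 0.0012), with no overlap. Both of its dim probe sets were not called, at -0.43 and 0.45, so the second had the opposite sign.

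Muscle and ubiquitous isoforms were compared through the log2 ratio of their probe sets on each array. Only the difference of such a ratio between groups is read, since the level of a ratio mixes the brightness of different probes. In each pair the first gene was the brighter. The ratios were not run with quantile normalization, and the part that a shift depending on brightness had in these differences was not tested. The question was whether the muscle form fell further than its partner. Cox4i1 and Cox4i2 include no muscle form, and there the question was whether the main form, Cox4i1, fell further. With 5 arrays against 5, the smallest two-sided p of the exact permutation test is 0.00794. There were 6 tests, for 3 pairs in 2 regions, and the Benjamini-Hochberg value over them follows each p.

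Cox6a2, the heart and muscle isoform of subunit 6A, had signals of 22949, 38604, 19483, 15378 and 14290 on the PE outflow arrays, against 43454, 36106, 36475, 38838 and 38717 on the vehicle outflow arrays (log2 change -0.90 ± 0.19, limma adjusted p = 0.00087). Cox6a1, the form of liver and most tissues, had 7681, 7189, 6956, 6258 and 6562 on the PE arrays, against 10275, 10349, 10797, 11547 and 13680 on the vehicle arrays (-0.70 ± 0.10, limma adjusted p = 2.6e-05). Both fell. Replicate 2 lay within the vehicle range for Cox6a2 and below it for Cox6a1.

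The log2 ratio of Cox6a2 to Cox6a1 was 1.58, 2.42, 1.48, 1.29 and 1.12 on the PE outflow arrays, against 2.08, 1.80, 1.75, 1.75 and 1.50 on the vehicle outflow arrays. The groups overlapped, and the difference of -0.20 missed the threshold (exact permutation p = 0.437, adjusted 0.437). Replicate 2 had the highest ratio of all, and without it the difference was -0.41 (exact permutation p = 0.0238). In the apex the ratio was 1.71, 1.69, 1.68, 1.73 and 1.62 on the PE arrays, against 1.83, 1.87, 1.84, 1.83 and 1.84 on the vehicle arrays. There every PE array lay below every vehicle array, by a mean of 0.15 (exact permutation p = 0.00794, the smallest possible, adjusted 0.0238).

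Cox8b, the heart and muscle isoform of subunit 8, had 23247, 41837, 17575, 15099 and 14751 on the PE outflow arrays, against 45805, 35212, 37040, 39702 and 39610 on the vehicle outflow arrays (log2 change -0.92 ± 0.21, limma adjusted p = 0.0015). Cox8a, the form of liver and most tissues, had 10437, 14382, 11113, 10644 and 9192 on the PE arrays, against 14068, 14150, 14160, 16119 and 15582 on the vehicle arrays (-0.42 ± 0.11, limma adjusted p = 0.0051). Both fell, and for both only replicate 2 of the PE arrays reached the vehicle range.

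The log2 ratio of Cox8b to Cox8a was 1.15, 1.54, 0.66, 0.50 and 0.68 on the PE outflow arrays, against 1.70, 1.31, 1.39, 1.30 and 1.35 on the vehicle outflow arrays. The difference was -0.50 (exact permutation p = 0.0714, adjusted 0.107), and replicate 2 was the only PE array inside the vehicle range. Without it the difference was -0.66 (exact permutation p = 0.00794). In the apex the ratio was 1.29, 1.24, 1.07, 1.36 and 1.23 on the PE arrays, against 1.43, 1.24, 1.43, 1.34 and 1.31 on the vehicle arrays. These overlapped (difference -0.11, exact permutation p = 0.103, adjusted 0.124).

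Cox4i1 is the main form of subunit 4 and Cox4i2 a form best known from lung. Cox4i1 had 23051, 41236, 23183, 20424 and 18398 on the PE outflow arrays, against 44432, 37248, 40845, 43076 and 42060 on the vehicle outflow arrays (log2 change -0.78 ± 0.16, limma adjusted p = 0.00061). Cox4i2 had 503, 491, 336, 298 and 319 on the PE arrays, against 439, 521, 479, 426 and 413 on the vehicle arrays (-0.25 ± 0.14, limma adjusted p = 0.21). Cox4i1 fell and Cox4i2, whose probe set was dim (mean log2 signal 8.78), was not called.

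The log2 ratio of Cox4i1 to Cox4i2 was 5.48, 6.35, 6.04, 6.02 and 5.78 on the PE outflow arrays, against 6.61, 6.12, 6.37, 6.61 and 6.62 on the vehicle outflow arrays. It was lower by 0.53 in PE (exact permutation p = 0.0159, adjusted 0.0318), with the PE array of replicate 2 and the vehicle array of replicate 2 in each other's range. In the apex it was 6.28, 6.18, 6.02, 6.28 and 6.26 on the PE arrays, against 6.66, 6.36, 6.40, 6.40 and 6.35 on the vehicle arrays. All PE values were lower, by a mean of 0.23 (exact permutation p = 0.00794, adjusted 0.0238).

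**Figure D3:**
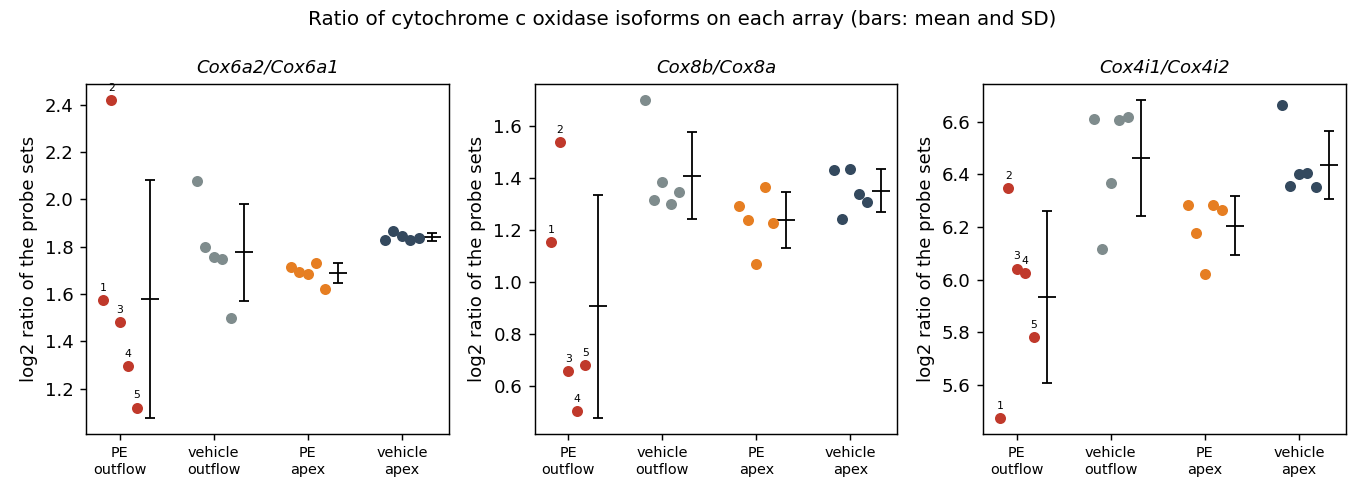
Log2 ratio of the 2 probe sets of each isoform pair on each array of the 4 groups; points are arrays, PE outflow replicates are numbered, and bars give the mean and SD of 5. The Cox6a2 to Cox6a1 ratio separates PE apex (1.62 to 1.73) from vehicle apex (1.83 to 1.87), and PE outflow replicate 2 has the highest ratio of its group in each pair.

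The PE outflow arrays differed among themselves. For the 40 genes above a mean log2 signal of 10, the PE arrays of replicates 1, 3, 4 and 5 each had all 40 below every vehicle outflow array, where 26.3%, 25.9%, 26.7% and 32.7% of all probe sets were on these arrays. Replicate 2 had 23 of the 40 below (22.5% of all probe sets). Their mean log2 difference from the 10 vehicle arrays was -0.79, -0.36, -0.98, -1.26 and -1.36 on replicates 1 to 5, against -0.08 to 0.08 on the vehicle outflow arrays. The shares over all probe sets include dim ones. In outflow, signals above that limit were called lower more often in general (39.5% of the 4640 others).

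The complexes did not share this pattern equally. On replicate 2 the mean difference was -1.11 for complex II, within the range of -0.91 to -1.74 on the other 4 PE arrays. It was -0.40 for complex III (others -0.86 to -1.47), -0.12 for complex IV (others -0.67 to -1.13) and -0.32 for complex V (others -0.82 to -1.38). All 4 complex II genes lay below every vehicle array on replicate 2, against 4 of 8 in complex III, 5 of 12 in complex IV and 10 of 16 in complex V. Uqcrq, Cox7b, Atp5f1b, Atp5f1e and Atp5mc3 lay above the whole vehicle outflow range on that array. No test was run on a single array.

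**Figure D4:**
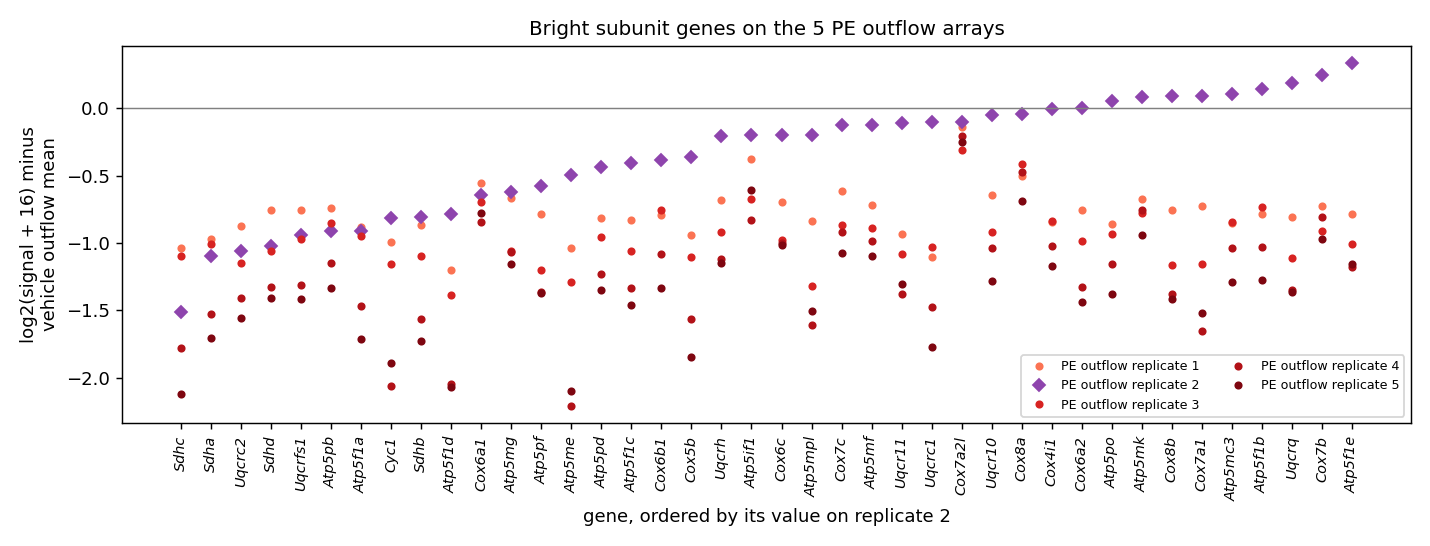
Log2 signal of each of the 40 genes on the PE outflow arrays minus the vehicle outflow mean of that gene, ordered by the value on replicate 2 (purple diamonds); the other arrays are shades of red. Replicate 2 runs from -1.51 (Sdhc) to 0.34 (Atp5f1e), while the other arrays stay below 0 for all 40 genes.

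Markers of cell types moved in the same comparison, in which 14.9% of all probe sets were lower and 19.6% higher. Of the 4640 non-member probe sets above a mean log2 signal of 10, 39.5% were lower. Of 14 measured markers of cardiomyocytes, 12 fell and 0 rose by limma (13 at an unadjusted p under 0.05), with a median log2 change of -0.83. Ryr2, Ckm, Pln and Ttn, which encode proteins of calcium release, energy buffering, calcium uptake and the sarcomere, had the smallest p (-1.50, -1.52, -0.94 and -1.33). Their summed signal ran from 222087 to 620157 on the PE outflow arrays and from 499539 to 590766 on the vehicle outflow arrays. Their mean log2 level was 14.38, 15.24, 14.32, 13.87 and 13.72 on PE outflow replicates 1 to 5, against 15.05 to 15.29 on the vehicle outflow arrays, so that replicate 2 lay in the vehicle range and the other 4 below it. The lowest marker mean was 6873 in PE outflow, so none was near 0. Of 11 fibroblast markers 10 rose (median 1.46), and their summed signal was 174210 to 201049 in PE outflow and 69445 to 101381 in vehicle outflow. All 11 macrophage markers rose (median 1.33), with sums of 17486 to 44274 in PE outflow and 11610 to 17385 in vehicle outflow. The part that these shifts or the GAPDH ratio had in the fall of the subunit genes was not tested.

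Other marker lists were mixed, and their counts are to be read beside the 14.9% of all probe sets that were lower and the 19.6% that were higher. Of 8 smooth muscle markers 4 rose and 2 fell, of 8 endothelial markers 2 rose and 1 fell, of 7 adipocyte markers 4 rose and 2 fell, and of 4 red cell markers 1 fell. The subunit genes made up 2.60% ± 0.66 of the total signal in PE outflow and 4.34% ± 0.16 in vehicle outflow, and 3.89% ± 0.14 in PE apex and 4.39% ± 0.20 in vehicle apex (SD, n = 5 each).

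Genes that work with complexes II to V fell as well, in a comparison where 14.9% of all probe sets were lower. Of the 4640 non-member probe sets above a mean log2 signal of 10, 39.5% were lower. All 35 measured subunits of complex I, which feeds electrons from NADH into the chain, were lower (median log2 change -1.19), with Ndufb11, Ndufb8, Ndufs3 and Ndufs1 at -1.33, -1.78, -1.52 and -1.47. Assembly factors, which help build a complex without staying in it, fell in 4 of 4 measured for complex II, 6 of 7 for complex III, 16 of 21 for complex IV and 4 of 5 for complex V, and none rose by limma. Examples with the smallest p in each were Sdhaf2 (-0.75), Uqcc1 (-1.22), Coa3 (-0.89) and Fmc1 (-1.34).

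All 14 measured genes of the mitochondrial outer membrane and import fell (median -0.96), where 14.9% of all probe sets were lower. Among these genes were the chaperone gene Hspa9 (-1.27) and the channel gene Vdac2 (-0.94). Of 10 measured genes of supercomplexes and cristae, a list that includes Cox7a2l and shares Immt and Higd1a with other lists, 8 fell, among them Chchd3 (-1.44) and Apoo (-1.55).

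Of 18 regulators of mitochondrial gene expression, 11 fell and 0 rose by limma, where 14.9% of all probe sets were lower and 19.6% higher. Their median log2 change was -0.65. At an unadjusted limma p under 0.05 there were 13, counted in either direction and not only as falls. Esrra, the estrogen-related receptor alpha, had mean signals of 499 in PE outflow and 1544 in vehicle outflow (log2 change -1.66 ± 0.20, limma adjusted p = 2.8e-06). Tfb2m, a mitochondrial transcription factor, had -0.86, Esrrb, a related receptor, -1.39, and Ppara, a receptor for fatty acids, -2.15. The coactivator gene Ppargc1a, named outside the rule after its values were seen, had -1.40 ± 0.23 (limma adjusted p = 7.0e-05). Factors whose motifs were searched above were not all lower: Nrf1 had 0.48 (limma adjusted p = 0.055), Gabpa 0.20 (0.36) and Yy1 0.18 (0.21), and none was called. In the apex no gene of the marker or related lists was called by limma. At an unadjusted p under 0.05 there were 7 of 11 fibroblast markers, 7 of 11 macrophage markers, 0 of 14 cardiomyocyte markers and 4 of 35 complex I subunits.

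In the apex the second comparison asked for the same PE effect. None of the 51 member probe sets was called by limma, where 0.0129% of all probe sets were, all of them higher. At an unadjusted p under 0.05 there were 3, all lower (Atp5f1d, Atp5pf and Atp5mg), where 3.09% of all probe sets were lower at that level. The log2 changes were negative for 45 of the 51 (49.3% of all probe sets), with a median of -0.22, against 0.00 over all probe sets. For 15 of the 51 every PE array lay below every vehicle array (1.50% of all probe sets).

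Atp5f1d had 13512, 14422, 13128, 14696 and 13494 on the PE apex arrays, against 16863, 16710, 19099, 19963 and 19183 on the vehicle apex arrays. The groups did not overlap, but the log2 change of -0.40 ± 0.18 had a limma adjusted p of 0.64. Sdha, by contrast, overlapped, with 21630, 23072, 21451, 23145 and 19985 on the PE arrays, against 25009, 22391, 24649, 23264 and 26317 on the vehicle arrays (-0.15 ± 0.13, limma adjusted p = 0.85). The other genes whose apex groups did not overlap by their main probe set were Uqcrc2, Cyc1, Uqcrh, Uqcr11, Cox4i1, Cox5b, Cox7c, Cox8a, Atp5f1a, Atp5f1e, Atp5mc3, Atp5pd and Atp5mk, with log2 changes of -0.31 (Atp5f1e and Uqcr11) to -0.18 (Cox8a). None of them passed the test.

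On the 5 PE apex arrays 29, 35, 30, 19 and 37 of the 40 genes lay below every vehicle apex array, where 16.6%, 15.1%, 17.6%, 16.4% and 18.6% of all probe sets, bright or dim, did. Their mean log2 difference from the vehicle arrays was -0.14 to -0.32 in PE apex and -0.12 to 0.08 in vehicle apex. By complex it ran from -0.11 to -0.27 for complex II, -0.14 to -0.32 for complex III, -0.15 to -0.31 for complex IV and -0.15 to -0.35 for complex V. With quantile normalization the median change of the member probe sets in the apex was -0.05.

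**Figure D5:**
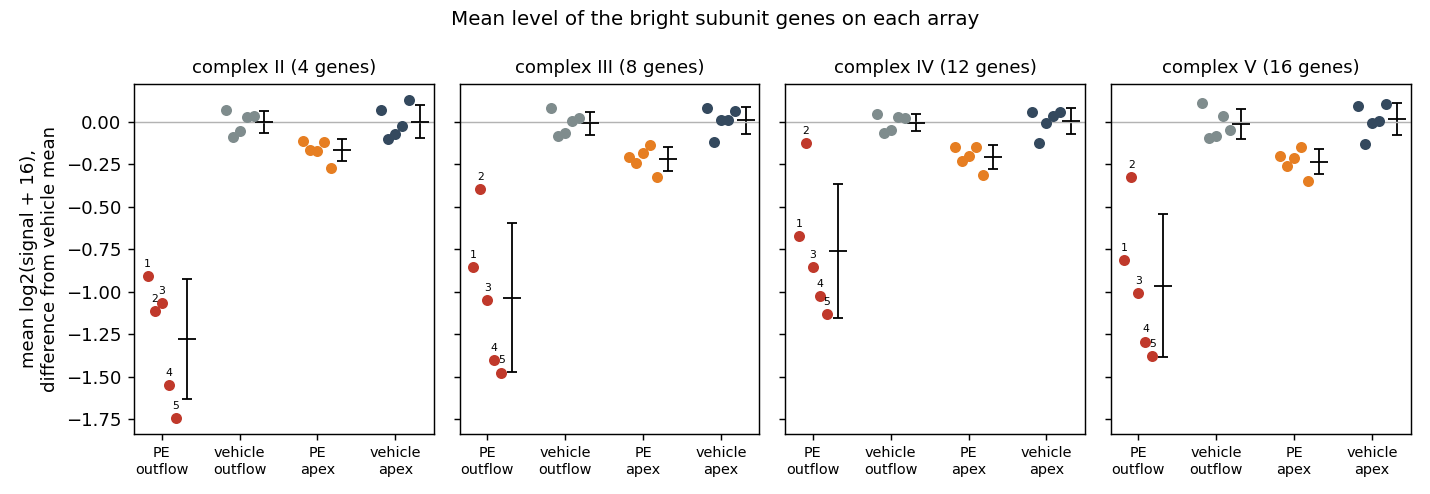
Mean log2(signal + 16) of the genes above a mean log2 signal of 10, by complex, as the difference from the mean of the 10 vehicle arrays; points are arrays, PE outflow replicates are numbered, and bars give the mean and SD of 5. PE outflow replicates 1, 3, 4 and 5 lie lowest in complexes III, IV and V, and PE apex arrays lie between -0.35 and -0.11. In complex II all PE outflow arrays lie lowest, with replicate 2 (-1.11) inside its group. In complex IV (-0.12) replicate 2 lies above all PE apex arrays and in complex V (-0.32) above PE apex replicate 5 (-0.35).

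Whether the PE effect differed between the regions was tested as the difference of both effects, outflow minus apex. It was called for 24 of the 51 probe sets, 23 with a lower value and 1 (Cox6b2) with a higher one, where 8.09% of all probe sets were lower and 9.84% higher. All 4 genes of complex II were among them, from -1.36 ± 0.23 (Sdhc, limma adjusted p = 0.00085) to -0.94 ± 0.16 (Sdhd, limma adjusted p = 0.00093). In complex III the difference was called for 4 of 8: Uqcrc1, Uqcrc2, Uqcrfs1 and Cyc1, from -1.16 to -0.90. The Uqcrc1 call was lost in 10 of 33 alternatives. The other 4, Uqcrh, Uqcrq, Uqcr10 and Uqcr11, had -0.69 to -0.55 and limma adjusted p-values of 0.068 to 0.12, and whether they differed from the first 4 was not tested. On PE outflow replicate 2 these 4 lay at -0.20, 0.18, -0.05 and -0.11 from the vehicle outflow mean, against -1.38 to -0.64 on the other 4 PE arrays. Without that array their differences were -0.96 to -0.70, and all 8 genes of complex III were called. In complex V it was called for 9 of 16, the largest being Atp5me (-1.17 ± 0.35) and Atp5f1d (-1.09 ± 0.26).

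In complex IV the difference was called for Cox5b (-0.89), Cox6b1 (-0.69), Cox6a1 (-0.63) and Cox6b2 (2.28 ± 0.55, limma adjusted p = 0.0072), and for 13 of 17 genes it was not. The muscle isoforms Cox6a2, Cox7a1 and Cox8b were among these 13, at -0.67, -0.72 and -0.63. Without PE outflow replicate 2 the difference was called for 45 of the 51 probe sets, 44 lower and 1 higher, where 10.9% of all probe sets were lower and 12% higher. By gene this was all 4 of complex II, all 8 of complex III, all 16 of complex V and 13 of the 17 filed with complex IV, among them Cox6a2 (-0.90), Cox7a1 (-0.99) and Cox8b (-0.88).

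Outflow was also set against apex within each treatment. In PE rats 40 of the 51 probe sets were lower in outflow than in apex and 1, Cox6b2, was higher, where 12.7% of all probe sets were lower and 28.7% were called in either direction. For 20 every outflow array lay below every apex array (8.64% of all). This comparison shares the PE outflow arrays with the first. Sdhc had a log2 difference of -1.29 and Uqcrc2 of -1.03. Of the 45 genes, 7 were not called: Cox4i2, Cox5a, Cox7a2l, Cox7b, Cox7b2, Cox8a and Atp5f1e. In vehicle rats 0 of the 51 were called by limma, where 0% of all probe sets were. At an unadjusted p under 0.05 there were 0 of the 51, where 3.71% of all probe sets were. The median difference there was -0.01. Sdhc, for example, had means of 17119 ± 1431 in outflow and 16327 ± 1470 in apex (SD, n = 5 each).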

How the data were processed

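Right ventricular RNA of 20 samples (4 groups of 5) had been hybridised to 1-colour Affymetrix arrays. The deposited values are linear intensity signals per probe set, per the labels. The software behind them is not given in the sources used here. The mean signal after trimming 2% at each end was the same on every array, so the authors had scaled them. Here 57 control probe sets were left out, log2(signal + 16) was fitted for 31042 probe sets with limma 3.58.1 in R 4.3.3 (4 group means, empirical Bayes, Benjamini-Hochberg over all probe sets, called at an adjusted p under 0.05), and isoform ratios were tested by exact permutation. No further normalization or filter was applied. Precision is limited by how many arrays there were. Of the probe sets, 20826 had 1 symbol in the platform annotation, 436 several and 9780 none.

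Same-numbered outflow and apex arrays of a treatment deviated together (correlations of 0.181 to 0.283 in PE and 0.181 to 0.276 in vehicle, over 12310 probe sets), and all correlated best with their own number. Replicate numbers did not pair PE with vehicle (-0.283 to 0.103 in outflow, -0.075 to 0.154 in apex). A block for the rat was tried as an alternative, with others for scaling, added constant, filter, variance model, array weights, RNA quality and left-out arrays. The members and gene lists were chosen with earlier results of these data known. Named genes were the isoform pairs, complex II, Cyc1, the largest and smallest changes in complexes III, IV and V, genes called against their complex, and in each other list those with the smallest p.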

Additional observations from a re-analysis of the deposited data

Results flagged for a closer look

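Among 216 sets of 5 values examined (each probe set or isoform ratio in each group), 14 held an array far from the other 4, where chance gives about 1 in 20. The count is near that share, and the sets share arrays, so they are not independent. Of the 14, 6 were on PE outflow replicate 2, the array with the GAPDH ratio of 6.12, and on all of them it was the highest of its group in log2 signal. They were Cox4i1 at 15.33 (others 14.17 to 14.50), Cox6c-ps1 at 7.77 (7.08 to 7.26), Cox7b at 15.56 (14.34 to 14.59), Atp5f1e at 15.42 (13.91 to 14.30), Atp5mk at 15.45 (14.42 to 14.69) and the dim probe set of Atp5po at 7.18 (6.15 to 6.44).

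In PE apex, replicate 5 was lowest for the second probe set of Uqcrc2 at 13.69 (others 14.05 to 14.12), for Cox7c at 14.47 (14.65 to 14.71) and for a dim probe set of Atp5if1 at 5.69 (6.31 to 6.47). In vehicle outflow, replicate 1 was lowest for another dim probe set of Atp5if1 at 6.18 (7.18 to 7.51) and highest for the log2 ratio of Cox8b to Cox8a at 1.70 (1.30 to 1.39). In vehicle apex, Cyc1 was highest on replicate 5 at 14.93 (14.65 to 14.69), the main probe set of Atp5po was lowest on replicate 2 at 14.74 (15.02 to 15.09), and the log2 ratio of Cox4i1 to Cox4i2 was highest on replicate 1 at 6.66 (6.35 to 6.40).

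The PE effect differed between outflow and apex, by limma's test of the difference itself, for 24 probe sets. The log2 differences, outflow effect minus apex effect, were -1.11 for Sdha, -1.01 for Sdhb, -1.36 for Sdhc and -0.94 and -1.23 for the probe sets of Sdhd. In complex III they were -0.90 for Uqcrc1, -0.97 and -2.63 for the probe sets of Uqcrc2, -0.91 for Uqcrfs1 and -1.16 for Cyc1. For the second Uqcrc2 probe set the difference was -1.92 without PE outflow replicate 2 and ran from -3.05 to -1.02 over all alternatives, and the Uqcrc1 call was lost in 10 of 33. In complex IV they were -0.89 for Cox5b, -0.63 for Cox6a1, -0.69 for Cox6b1 and 2.28 for Cox6b2. In complex V they were -0.90 for Atp5f1a, -0.79 for Atp5f1c, -1.09 for Atp5f1d, -0.79 for Atp5pb, -0.75 for Atp5pd, -0.74 for Atp5pf, -1.17 and -1.31 for the probe sets of Atp5me, -0.65 for Atp5mg and -0.84 for Atp5mpl, whose call was lost in 15 of 33 alternatives.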

How the results depend on the processing

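Of the 51 member probe sets, 41 to 47 were called in PE against vehicle outflow over 32 alternatives, against 43 as reported, and 0 in the apex. Outflow against apex had 33 alternatives, since the rat as a fixed factor was added. There 31 to 46 were called in PE rats (41 as reported) and 0 in vehicle rats. Leaving out each array in turn gave 43 to 46, 35 to 46 and 0. For the difference of the PE effects, reported for 24, it gave 21 to 45, with 45 without PE outflow replicate 2. The GAPDH ratio as a covariate gave 45 and array weights 43. The cause of these shifts was not tested. Quantile normalization gave 42 and 24 calls (outflow and difference) and centring on the median 46 and 36. With the rat as a random replicate block the counts were 43, 0, 24, 41 and 0 (outflow, apex, difference, PE regions, vehicle regions), and with the replicate number as a fixed factor 43, 0, 22, 39 and 0, so neither block changed a count by over 1.5 times. Without PE outflow replicate 2 the log2 difference was -0.41 for Cox6a2 to Cox6a1 and -0.66 for Cox8b to Cox8a. With PE outflow replicates 1 and 3 alone it was -0.25 for Cox6a2 to Cox6a1, -0.50 for Cox8b to Cox8a and -0.70 for Cox4i1 to Cox4i2. For Cox8b to Cox8a the exact permutation p was then 0.0476, the smallest that this setting can give. Leaving out each array gave -0.41 to -0.082 (Cox6a2 to Cox6a1) and -0.66 to -0.40 (Cox8b to Cox8a) in outflow, and -0.16 to -0.14 and -0.14 to -0.070 in the apex. In the apex the exact permutation p of Cox8b to Cox8a ran from 0.0397 (without PE apex replicate 4) to 0.214 over all its alternatives. For Cox4i1 to Cox4i2, leaving out each array gave -0.63 to -0.41 in outflow and -0.25 to -0.17 in the apex. Of the 43 outflow calls 38 held in all alternatives, 5 were lost in at least 1, and 0 reversed. Of the 8 outflow probe sets not called 6 gained a call in at least 1, among them Cox5a (-0.98) and Cox6c-ps1 (-0.48) without PE outflow replicate 2. Of the 24 calls of the difference 18 held in all alternatives and 6 were lost in at least 1 (Atp5mpl in 15 and Uqcrc1 in 10 of 33). Other probe sets for the isoform pairs were not run, since each gene has 1, and the rat as a fixed factor gives no PE against vehicle value. Dim probe sets carry no detection calls, which limits what their values show.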
